A study of Mus musculus with 15 samples.

Results

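Irradiated mouse submandibular glands that had received Shh by gene transfer were set against irradiated glands that had received GFP or no transfer, and all genes were compared. The 9 libraries used, of 15 in the series, were chosen by their labels. All came from adult male C57BL/6 mice whose glands were taken 7 days after local irradiation. IR+Shh glands carried a transfer of Shh into the gland. The irradiated control joined IR+GFP glands, which carried a transfer of GFP, and IR glands, which were wild type without transfer. The other libraries were IR+Gli1, which were irradiated glands with a transfer of Gli1, and NT, which were non-treated wild type glands. They helped to estimate the spread, and their values are given only as context. The labels give neither the vector nor the species of the transferred gene, the radiation dose, the time of transfer, or whether glands were pooled.

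A pair of libraries in every group was closer than the sampling noise of the reads allows for separate samples, and each such pair was averaged and counted once. Their chi-square, averaged over genes, lay between 0.215 and 0.337, against 22.03 to 223 for the other pairs within a group. IR+Shh therefore held 2 samples, named IR+Shh 1+3 and IR+Shh 2. The irradiated control held 4, named IR+GFP 1+2, IR+GFP 3, IR 1+2 and IR 3. Levels are CPM, read counts scaled to the depth of each library with TMM factors, and are given in this sample order. Libraries held 18205941 to 41064723 gene reads. Nothing in the labels says that the samples came from separate mice, so p-values here refer to the spread among these samples, which may be technical.

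Sonic hedgehog is a secreted ligand. It binds Patched receptors, which frees Smoothened to signal to the Gli transcription factors, and Gli1, Ptch1 and Hhip are target genes by which the pathway is commonly read. In salivary glands the pathway is known from branching of the embryonic gland. Heyl encodes a transcription factor known as a target of Notch signalling, and C1qc encodes a chain of complement C1q, which tissue macrophages produce. The male mouse submandibular gland also has granular convoluted tubules, ducts that store and secrete growth factors and kallikreins.

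The reads of the transferred genes did not check the labels. Shh had 0 reads in every library of the series, which at 3 reads allows levels of up to 0.0731 to 0.165 CPM. Since the species of the transferred gene is not given, a count of 0 on the mouse gene cannot say whether the transfer was expressed. Gli1 had 37, 24 and 17 reads in the IR+Gli1 libraries and 77, 115 and 48 reads in the IR+Shh libraries. By total counts this was 0.878 to 0.962 CPM in IR+Gli1 and 2.5 to 4.21 CPM in IR+Shh. Control libraries had 0.488 to 0.747 CPM and NT libraries had 0.4245 to 0.535 CPM by total counts. The TMM factors were 1.72 and 1.31 in the IR+Gli1 samples and 0.8659 to 0.9935 in the others. The TMM-scaled levels of IR+Gli1 given below are therefore lower than those by total counts.

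Of 14304 genes tested, 4 were higher in IR+Shh and 0 were lower (0.028% and 0% of genes; edgeR's quasi-likelihood test with Benjamini-Hochberg adjustment over all genes, threshold 0.05, two-sided). The 4 were Gli1, Nfil3, Lrch1 and Pde4b. At an unadjusted p under 0.05 there were 1083 genes in either direction (7.57%). The count rests on single samples: it was 0 on leaving out either IR+Shh sample, either IR sample or IR+GFP 1+2, and 4 without IR+GFP 3, of which 1 was among the 4 named here. DESeq2 called 40 genes higher and 11 lower (0.28% and 0.0769%), and limma-voom called 0. Without IR+GFP 3 and IR+Gli1 3 together, edgeR called 71 higher and 8 lower (0.478% and 0.0539% of 14841 genes), the 4 among them.

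Gli1, the transcription factor that is both an effector and a target of the pathway, lies at chr10:127329882-127341974 (GRCm38). It had 2.73 and 4.24 CPM in IR+Shh, against 0.809 and 0.554 CPM in IR+GFP glands and 0.611 and 0.704 CPM in IR glands. Both IR+Shh samples stood above all 4 control samples, with IR+Shh 2 the higher. The means were 3.49 ± 1.07 CPM in IR+Shh and 0.669 ± 0.112 CPM in the control (SD, n = 2 and 4), a 5.21-fold difference. On the log2 scale Gli1 was 2.37 ± 0.27 higher (SE), with an adjusted p of 0.0417 by edgeR's quasi-likelihood test. Against IR+GFP alone the log2 difference was 2.33, and against IR alone it was 2.41. Neither of these passed the threshold (adjusted p = 0.354 and 0.528, edgeR). The levels rest on few reads, 63 and 115 in the IR+Shh samples against 9 to 19 in the control samples. IR+Gli1 samples had 0.558 and 0.672 CPM, and NT samples had 0.607 and 0.513 CPM.

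Nfil3 encodes a bZIP repressor that acts in the circadian clock and in the development of natural killer cells. It had 11.7 and 16.6 CPM in IR+Shh, against 6.30 and 4.80 CPM in IR+GFP glands and 5.50 and 5.74 CPM in IR glands. The groups did not overlap, and the control samples lay close together. Nfil3 rose 2.53-fold, or by 1.34 ± 0.17 on the log2 scale (adjusted p = 0.042, edgeR). NT samples had 12.4 and 17.3 CPM, and IR+Gli1 samples had 7.51 and 7.12 CPM. IR+Shh was not tested against NT.

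Pde4b encodes a phosphodiesterase that degrades cyclic AMP. Its levels were 34.3 and 40.3 CPM in IR+Shh, against 19.2 and 20.6 CPM in IR+GFP glands and 24.1 and 22.2 CPM in IR glands. Every IR+Shh sample was above every control sample, and within the control the IR samples were the higher. Pde4b rose 1.73-fold (log2 0.79 ± 0.10, adjusted p = 0.042, edgeR). Lrch1 encodes a protein with leucine-rich repeats and a calponin homology domain. It had 22.6 and 22.03 CPM in IR+Shh, against 14.5 and 14.8 CPM in IR+GFP glands and 14.01 and 14.8 CPM in IR glands. Lrch1 had the smallest change of the 4 and the tightest groups, with 22.3 ± 0.409 CPM in IR+Shh and 14.5 ± 0.373 CPM in the control (SD). It rose 1.54-fold (log2 0.62 ± 0.08, adjusted p = 0.042, edgeR).

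The promoters of Nfil3, Lrch1 and Pde4b are printed because these genes rose beside Gli1. The windows run 5′ to 3′ from 250 bases before to 50 bases after the RefSeq start (GRCm38.p6). Nfil3 is at chr13:52980990-52981289 on the minus strand, Lrch1 at chr14:74947828-74948127 on the minus strand, and the first of 4 Pde4b windows at chr4:102421305-102421604 on the plus strand. Capitals mark the half-site TGACG (reverse complement CGTCA) of cyclic AMP response elements, a motif chosen after the values were seen.
Nfil3: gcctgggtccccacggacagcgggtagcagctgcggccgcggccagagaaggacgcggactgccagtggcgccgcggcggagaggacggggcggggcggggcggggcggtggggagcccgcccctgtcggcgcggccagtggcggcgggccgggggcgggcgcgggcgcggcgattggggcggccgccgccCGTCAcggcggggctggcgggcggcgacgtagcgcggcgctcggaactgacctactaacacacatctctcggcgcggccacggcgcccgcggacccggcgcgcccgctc
Lrch1: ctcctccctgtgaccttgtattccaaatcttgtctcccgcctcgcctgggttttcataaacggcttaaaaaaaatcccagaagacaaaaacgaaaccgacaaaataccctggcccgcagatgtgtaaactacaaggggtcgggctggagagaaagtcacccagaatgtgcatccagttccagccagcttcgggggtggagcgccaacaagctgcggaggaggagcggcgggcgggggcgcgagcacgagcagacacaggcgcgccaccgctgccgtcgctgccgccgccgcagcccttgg
Pde4b: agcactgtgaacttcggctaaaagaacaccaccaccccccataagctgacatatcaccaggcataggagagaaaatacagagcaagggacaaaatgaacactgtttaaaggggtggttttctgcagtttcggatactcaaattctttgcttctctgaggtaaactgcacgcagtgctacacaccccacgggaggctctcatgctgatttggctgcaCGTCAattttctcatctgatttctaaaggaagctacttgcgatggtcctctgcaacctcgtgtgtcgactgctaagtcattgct
The half-site stood once in the Nfil3 window and once in this Pde4b window, while the other 3 Pde4b windows and the Lrch1 window held none. Over all 32851 promoter windows of this length, searched on both strands, 20.8% held it. Among the other windows searched, Hhip held 2 overlapping half-sites and C1qb held 1, while Ptch1 and C1qc held 0. GACCACCCA, the Gli consensus, was in none of the windows of Nfil3, Lrch1, Pde4b, Ptch1 and Hhip, and 0.253% of all windows held it. TGGGAA, the motif of the Notch factor Rbpj, stood once each in Pde4b windows 2 and 4 and in no other window searched. Of all windows 25.6% held it. No window was found for Gli1 or Heyl. A match or its absence describes these letters in this window only.

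**Figure D1:**
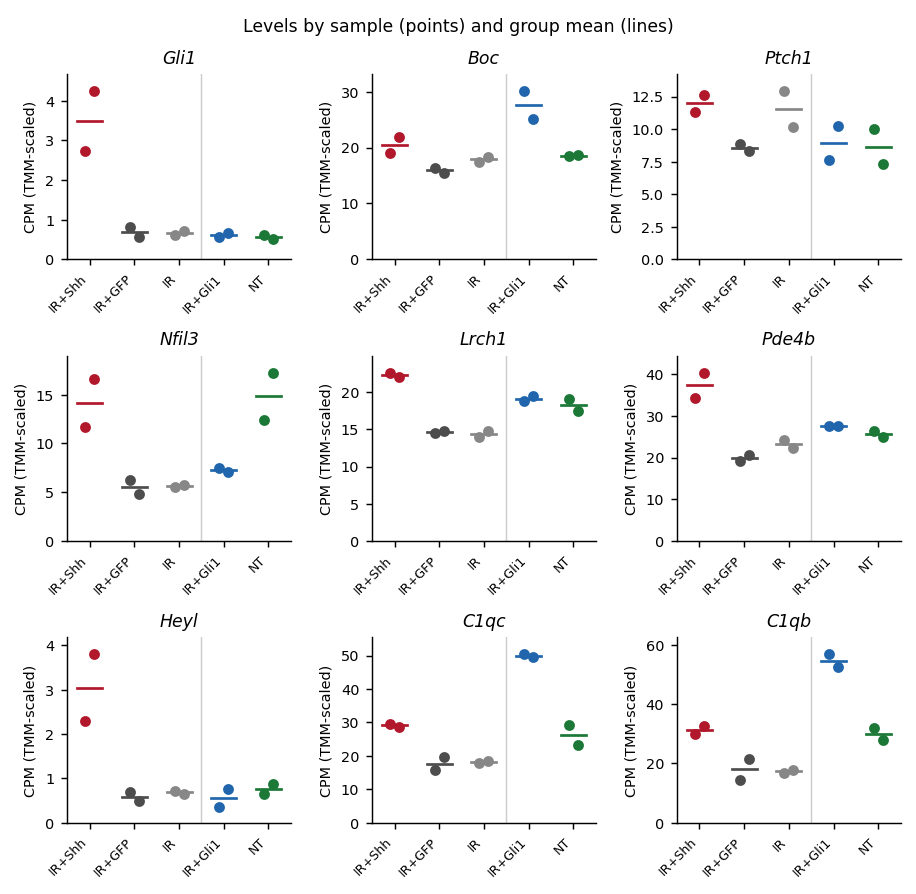
Levels of 9 genes in CPM after TMM scaling, with 1 point for each sample and a line at the mean of each group. IR+Shh stands left of IR+GFP and IR, and IR+Gli1 and NT follow right of the grey line. Gli1 and Heyl are high in IR+Shh alone among the 5 groups, Ptch1 overlaps between IR+Shh and the control, and C1qc and C1qb are highest in IR+Gli1.

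The other receptors and targets of the pathway did not pass the test. Of 6 receptors and co-receptors tested 0 passed, 3 had IR+Shh samples above all control samples and 0 had them below, beside 12.4% and 11.2% of all genes tested. These shares are the background for every count of members above or below all control samples given here. Ptch1, the main receptor and a target gene, had 11.3 and 12.7 CPM in IR+Shh, against 8.86 and 8.31 CPM in IR+GFP glands and 12.9 and 10.2 CPM in IR glands. The groups overlapped through IR 1+2, and the log2 difference was 0.25 ± 0.20 (adjusted p = 0.833, edgeR). The co-receptor Boc had 19.1 and 21.9 CPM in IR+Shh, against 16.4 and 15.5 CPM in IR+GFP glands and 17.5 and 18.3 CPM in IR glands. Its groups did not overlap, and the log2 difference was 0.28 ± 0.11 (adjusted p = 0.593, edgeR). The co-receptor Cdon differed by 0.24 on the log2 scale and Smo, the signal transducer, by -0.04.

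Among 13 transducers tested, Gli1 alone passed. Gli2, the main activator of the pathway, had 0.433 and 0.738 CPM in IR+Shh, against 1.15 and 1.23 CPM in IR+GFP glands and 1.12 and 0.866 CPM in IR glands. The IR+Shh samples of Gli2 lay below all control samples (log2 -0.88 ± 0.34, adjusted p = 0.593, edgeR). Gli3, which is processed to a repressor, also lay below, at 0.303 and 0.553 CPM in IR+Shh, against 0.809 and 0.554 CPM in IR+GFP glands and 0.577 and 0.758 CPM in IR glands (log2 -0.64, adjusted p = 0.748, edgeR). Sufu, the inhibitor that holds Gli proteins, was level at 11.3 and 10.7 CPM in IR+Shh and 10.2 to 11.3 CPM in the control. The ligands Ihh and Dhh were too low to be tested, and Hhat and Disp1, which acylate and release the ligand, differed by 0.22 and 0.04.

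Of 26 listed target genes 16 passed the filter on low counts. Gli1 passed the test, 15 did not, and the median log2 difference was 0.05, near the -0.0032 of all genes tested; it kept its sign in 18 of 23 alternatives. Snai2 and Bcl2 stood above all control samples with log2 differences of 0.31 and 0.43, and Bmp4 and Rab34 stood below them with -0.98 and -0.27. Hhip, the secreted decoy receptor, had 0 and 3 reads in IR+Shh, against 1 and 0 in IR+GFP glands and 3 and 3 in IR glands, and was not tested. Ccnd1 was level, at 68.5 and 86.2 CPM in IR+Shh and 68.9 to 96.5 CPM in the control.

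Heyl, at chr4:123233556-123249875, had a pattern across samples like that of Gli1. It had 2.30 and 3.80 CPM in IR+Shh, against 0.681 and 0.492 CPM in IR+GFP glands and 0.713 and 0.650 CPM in IR glands. The groups were far apart, and IR+Shh 2 was again the higher. The 4.81-fold difference, 2.25 ± 0.33 on the log2 scale, missed the threshold (adjusted p = 0.0922, edgeR) and passed it in 7 of 23 alternatives. Among these 7 were the fits that took near-identical libraries as separate samples. Other Notch targets did not follow Heyl in size. Of 9 tested, 0 passed, and the median was 0.27. Hey1, a close relative, had 0.736 and 1.18 CPM in IR+Shh, against 0.469 and 0.677 CPM in IR+GFP glands and 0.611 and 0.541 CPM in IR glands (log2 0.75 ± 0.57). Efnb2, an ephrin ligand, differed by 0.40 and Hes1 by 0.35, and Hes1 overlapped. Of 16 Notch receptors, ligands and cofactors 0 passed, with a median of 0.0090 that kept its sign in 16 of 23 alternatives. The most abundant, Notch2 and Numb, differed by 0.04 and -0.06, and the ligand Jag1 stood above all control samples by 0.29.

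C1qc, at chr4:136889804-136893065, had 29.6 and 28.7 CPM in IR+Shh, against 15.8 and 19.5 CPM in IR+GFP glands and 17.7 and 18.5 CPM in IR glands. The IR+Shh samples were close together and above all control samples, a 1.63-fold difference. On the log2 scale this was 0.71 ± 0.11, short of the threshold (adjusted p = 0.101, edgeR) and past it in 8 of 23 alternatives. Among these 8 were the fits that took near-identical libraries as separate samples. The other chains had like values. C1qb had 29.8 and 32.8 CPM in IR+Shh, against 14.6 and 21.4 CPM in IR+GFP glands and 16.9 and 17.9 CPM in IR glands (0.83 ± 0.13, adjusted p = 0.101, edgeR). C1qa had 37.4 and 36.3 CPM in IR+Shh, against 17.1 and 26.1 CPM in IR+GFP glands and 19.5 and 20.4 CPM in IR glands (0.83 ± 0.15, adjusted p = 0.231, edgeR). All 3 chains were higher still in IR+Gli1, where C1qc had 50.4 and 49.5 CPM. NT samples had 29.2 and 23.1 CPM of C1qc and 32.0 and 27.9 CPM of C1qb, and IR+Shh was not tested against NT.

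None of 30 macrophage genes passed the test. The log2 difference was above 0 in 26, against 49.3% of all genes tested, and 17 had both IR+Shh samples above all control samples and 1, Cd14, had them below. The median log2 difference was 0.53, and it lay between 0.49 and 0.67 in 23 alternatives. Siglec1, a sialic acid receptor of macrophages, had 3.59 and 4.10 CPM in IR+Shh, against 1.70 and 2.15 CPM in IR+GFP glands and 2.10 and 2.003 CPM in IR glands. Ctss, the lysosomal protease cathepsin S, had 53.8 and 50.03 CPM in IR+Shh, against 24.8 and 33.5 CPM in IR+GFP glands and 21.8 and 19.9 CPM in IR glands. Csf1r, the receptor for macrophage colony-stimulating factor, had 23.7 and 26.6 CPM in IR+Shh, against 15.5 and 21.0 CPM in IR+GFP glands and 17.5 and 18.8 CPM in IR glands. The log2 differences were 0.95 for Siglec1, 1.06 for Ctss and 0.47 for Csf1r. Maf, a transcription factor and one of the most abundant members, did not share the pattern, with a log2 difference of -0.07. Summed over the list the levels were 531 and 549 CPM in IR+Shh, against 348 and 478 CPM in IR+GFP glands and 431 and 405 CPM in IR glands, so IR+GFP 3 was the highest control sample. NT samples had 557 and 528 CPM. In these bulk samples, more cells of a type and more RNA per cell cannot be told apart.

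**Figure D2:**
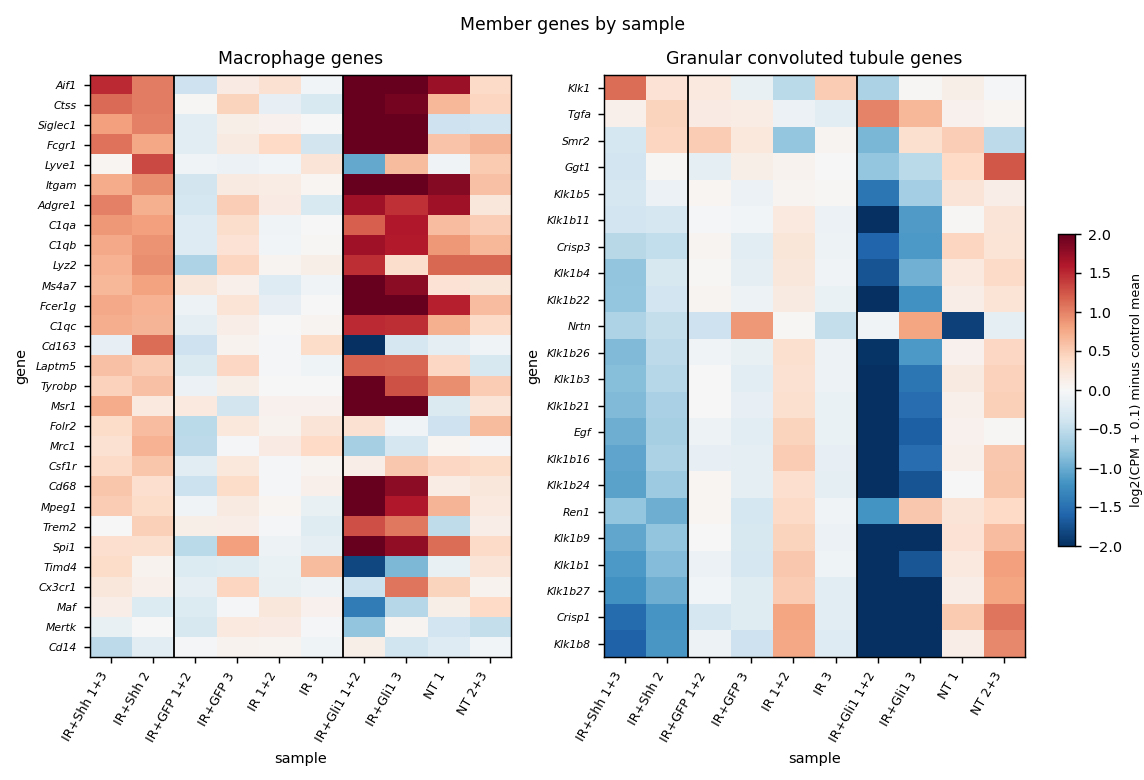
Heat maps of macrophage and granular convoluted tubule genes, with 1 row for each gene shown and 1 column for each sample. Colour is log2(CPM + 0.1) minus the control mean and is clipped at 2 in either direction; black lines part IR+Shh, the 4 control samples, and the IR+Gli1 and NT samples. Most macrophage genes are red and most tubule genes are blue in both IR+Shh columns, and most of them are deeper in IR+Gli1.

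Complement and the factors that recruit and feed macrophages were set beside these. Of 16 complement genes 0 passed and 7 stood above all control samples, with a median of 0.69. Beside the C1q chains these were C2, C3, Cfp and Serping1. Of 17 macrophage growth factors and chemokines 0 passed, 7 stood above and 1, Vegfa, stood below. Csf1, the macrophage growth factor, had 39.5 and 38.6 CPM in IR+Shh, against 31.8 and 28.7 CPM in IR+GFP glands and 29.9 and 30.7 CPM in IR glands (0.37 ± 0.13). Il34, the other ligand of the same receptor, overlapped with 20.8 and 19.1 CPM in IR+Shh and 14.6 to 21.5 CPM in the control. Ccl8, a monocyte chemokine, had 3.03 and 3.91 CPM in IR+Shh, against 0.341 and 1.54 CPM in IR+GFP glands and 1.39 and 0.812 CPM in IR glands (1.77 ± 0.53, adjusted p = 0.495, edgeR). The growth factor Igf1 differed by 0.90 and the membrane chemokine Cx3cl1 by 0.39.

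Genes induced by type I interferon were also higher without passing. Of 32 tested 0 passed, 24 stood above all control samples and 0 below, and the median was 0.86, between 0.51 and 1.05 in 23 alternatives. Irf7, the transcription factor that amplifies the response, had 53.5 and 25.3 CPM in IR+Shh, against 7.45 and 13.5 CPM in IR+GFP glands and 7.50 and 6.06 CPM in IR glands. Ifi27l2a, a small interferon-inducible gene, had 180 and 60.5 CPM in IR+Shh, against 29.8 and 44.0 CPM in IR+GFP glands and 22.3 and 15.4 CPM in IR glands. IR+Shh 1+3 was higher than IR+Shh 2 in both genes, the reverse of Gli1 and Heyl. The log2 differences were 2.20 ± 0.45 for Irf7 and 2.11 ± 0.51 for Ifi27l2a (adjusted p = 0.366 and 0.47, edgeR). The RNA sensor Ifih1 differed by 0.60, and Isg20 was the 1 member below 0, at -0.20. Summed over the list, IR+Shh had 538 and 319 CPM, against 202 and 260 CPM in IR+GFP glands and 208 and 171 CPM in IR glands. IR+Gli1 stood far above both, with 3126 and 1791 CPM.

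Class I antigen presentation genes stood higher too, and a single control sample bore on them. B2m, which encodes beta-2 microglobulin, had 666 and 589 CPM in IR+Shh, against 262 and 485 CPM in IR+GFP glands and 254 and 234 CPM in IR glands. IR+GFP 3 stood well above the other control samples, and the log2 difference was 1.02 ± 0.26 (adjusted p = 0.47, edgeR). H2-K1, a class I heavy chain, had 1113 and 986 CPM in IR+Shh, against 499 and 908 CPM in IR+GFP glands and 528 and 439 CPM in IR glands. H2-D1 overlapped between groups through IR+GFP 3, at 635 and 616 CPM in IR+Shh, against 370 and 631 CPM in IR+GFP glands and 387 and 339 CPM in IR glands. Of 18 class I genes 0 passed and 10 stood above all control samples, or 17 without IR+GFP 3, when 17.5% of all genes tested did so. IR+GFP 3 also had 8.22% of its reads aligned to several places, against 2.89% to 3.18% in the other libraries of the compared groups, and the part of this in the result was not tested. The H2 heavy chain genes are close copies of each other, and reads aligned to several of them were not counted. Class II genes had a median of 0.25, and of 9 tested 2 stood above all control samples and 1 below. Without IR+GFP 3, 7 stood above and 1 below, and the median was 0.41.

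**Figure D3:**
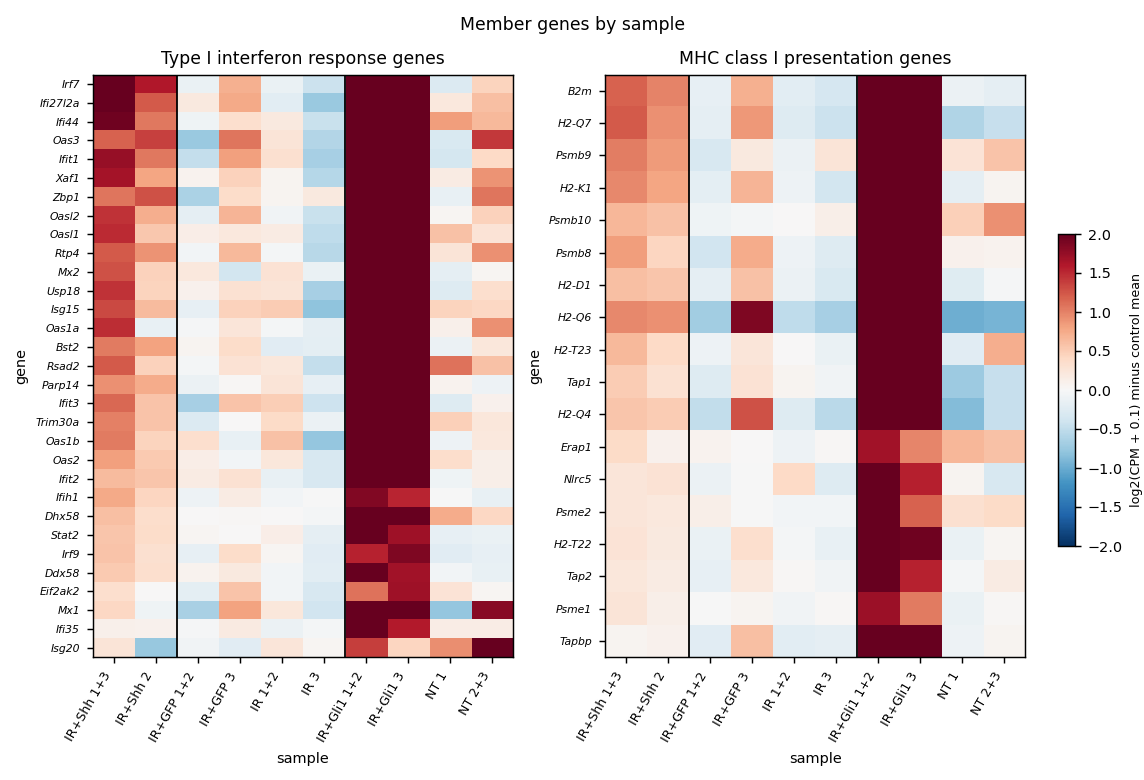
Heat maps of type I interferon response and class I presentation genes, with rows, columns, lines and colours as for the macrophage genes. Both IR+Shh columns are red in most rows, IR+GFP 3 is red in most class I rows, and IR+Gli1 is beyond the colour range in most rows of both lists.

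Transcripts of cytotoxic lymphocytes followed the same order at low levels. Gzma, the protease granzyme A, had 4.29 and 2.95 CPM in IR+Shh, against 0.426 and 1.23 CPM in IR+GFP glands and 0.747 and 0.433 CPM in IR glands. Ncr1, a receptor of natural killer cells, had 1.30 and 0.922 CPM in IR+Shh, against 0.213 and 0.492 CPM in IR+GFP glands and 0.441 and 0.271 CPM in IR glands. The log2 differences were 2.38 ± 0.53 and 1.64 ± 0.39 (adjusted p = 0.366 for each, edgeR). Of 15 T and natural killer cell genes 0 passed and 9 stood above all control samples, with a median of 1.31. Their summed level was 15.5 and 14.3 CPM in IR+Shh, against 4.30 and 9.42 CPM in IR+GFP glands and 5.67 and 3.52 CPM in IR glands. The T cell receptor genes Cd3d and Cd3e were too low to be tested. Of 6 monocyte and neutrophil genes that passed the filter 0 passed the test and 4 stood above, among 14 listed. Of the 6, 5 had a log2 difference above 0 and 0 had one below, and the lowest was 0.0. The filter on low counts took in every group, so reads of IR+Gli1 could admit a gene nearly absent from the compared samples. This limit holds for the T and natural killer cell genes as well. The neutrophil genes Ly6g, Cxcr2, Ngp and Elane had 0 reads in all compared samples. The part of these cells in the other gene groups was not tested.

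Genes of the granular convoluted tubules stood lower in IR+Shh, though none passed. Of 23 tested 0 passed the test, 18 had both IR+Shh samples below all control samples and 0 above, and the median log2 difference was -0.72. It lay between -0.87 and -0.58 in 23 alternatives. Egf, epidermal growth factor, had 29655 and 36669 CPM in IR+Shh, against 54141 and 50310 CPM in IR+GFP glands and 79034 and 53133 CPM in IR glands (-0.83 ± 0.37, adjusted p = 0.663, edgeR). Crisp1, a secreted cysteine-rich protein, had 272 and 348 CPM in IR+Shh, against 628 and 671 CPM in IR+GFP glands and 1364 and 678 CPM in IR glands. The groups overlapped in neither gene, and IR 1+2 was the highest sample in both. The log2 difference of Crisp1 was -1.43.

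The kallikreins of the tubules had the same order. Klk1b26 had 31882 and 40847 CPM in IR+Shh, against 56176 and 53314 CPM in IR+GFP glands and 73534 and 54975 CPM in IR glands (-0.71 ± 0.24). Klk1b8 had the largest difference of the list, -1.45. These kallikreins are near-identical copies, so reads could be split between them. Klk1 was the exception, at 7845 and 4428 CPM in IR+Shh and 2485 to 5127 CPM in the control. Summed over the list, tubule genes had 160207 and 188910 CPM in IR+Shh, against 269628 and 243065 CPM in IR+GFP glands and 350939 and 256231 CPM in IR glands, and NT samples had 310875 and 351751 CPM. With total counts in place of TMM the median of all genes tested was 0.14 instead of -0.0032, and that of the tubule list was -0.58.

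**Figure D4:**
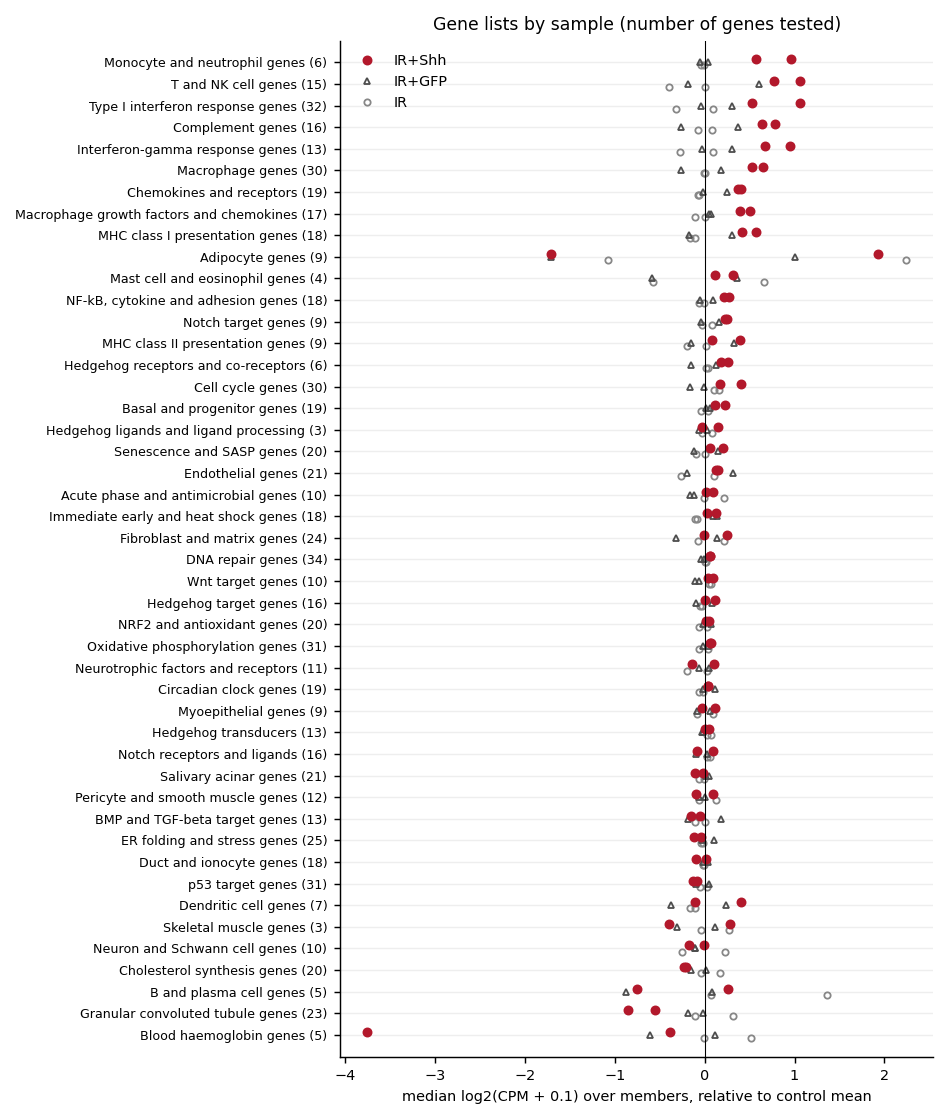
Median level of each gene list in each compared sample, as the median over members of log2(CPM + 0.1) minus the control mean, with the number of genes tested in brackets. The sublingual gland list, with a value far outside the axis, is left out. The macrophage, complement, interferon, class I, T and NK cell, and monocyte and neutrophil lists lie to the right for both IR+Shh samples and the tubule list to the left. The dendritic cell list is left of 0 in IR+Shh 1+3 and the B and plasma cell list in IR+Shh 2, while acinar, myoepithelial and most signalling lists lie near 0.

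Salivary acinar genes did not share this pattern. Of 21 tested 0 passed, 2 stood above and 2 below, and the median was -0.02, or 0.12 by total counts. Car6, a carbonic anhydrase of saliva, had 24363 and 21828 CPM in IR+Shh and 20029 to 24643 CPM in the control. Myoepithelial, smooth muscle and fibroblast lists had medians of 0.02, -0.04 and 0.06. Among 19 basal and progenitor genes 0 passed and 7 stood above all control samples, with a median of 0.23. Aldh1a3, a retinoic acid enzyme, had 64.8 and 54.8 CPM in IR+Shh, against 40.04 and 46.6 CPM in IR+GFP glands and 31.2 and 38.1 CPM in IR glands (0.62 ± 0.16, adjusted p = 0.452, edgeR). Sox10, a factor of acinar and myoepithelial cells, had 54.5 and 56.1 CPM in IR+Shh and 41.5 to 47.0 CPM in the control. The stem cell marker genes Krt14 and Kit overlapped, with differences of -0.01 each.

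No p53 target passed the test. Cdkn1a, the p53 target that arrests the cell cycle, had 23.1 and 27.5 CPM in IR+Shh, against 24.0 and 37.3 CPM in IR+GFP glands and 22.3 and 24.0 CPM in IR glands, and NT samples had 1.40 and 1.17 CPM. Of 31 p53 targets 0 passed, 11 stood below all control samples and 0 above. The median was -0.10, and it turned to 0.04 by total counts. Gdf15, a stress-induced cytokine, had the largest difference, with 14.2 and 7.20 CPM in IR+Shh, against 19.0 and 28.4 CPM in IR+GFP glands and 33.4 and 19.3 CPM in IR glands (-1.23 ± 0.42, adjusted p = 0.563, edgeR). DNA repair genes had a median of 0.06. Of 30 cell cycle genes 0 passed and 7 stood above, with a median of 0.23; Mki67, a marker of cycling cells, had 3.94 and 5.17 CPM in IR+Shh, against 1.49 and 3.14 CPM in IR+GFP glands and 3.56 and 2.81 CPM in IR glands.

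Neurotrophic genes went both ways. Gfra2, the receptor for neurturin, had 1.91 and 3.36 CPM in IR+Shh, against 0.469 and 0.616 CPM in IR+GFP glands and 0.747 and 1.46 CPM in IR glands (1.69 ± 0.44, adjusted p = 0.433, edgeR). Neurturin itself, Nrtn, overlapped at 2.60 and 2.88 CPM in IR+Shh and 2.87 to 7.45 CPM in the control. Of the 11 tested 0 passed, and the median was 0.03. Of 20 cholesterol synthesis genes 0 passed, 7 stood below all control samples and 0 above, with a median of -0.22, or -0.08 by total counts. Sc5d, a sterol desaturase, had 86.9 and 94.1 CPM in IR+Shh, against 125 and 115 CPM in IR+GFP glands and 141 and 116 CPM in IR glands. Wif1, a secreted Wnt inhibitor, had 1.56 and 2.36 CPM in IR+Shh, against 0.681 and 0.985 CPM in IR+GFP glands and 0.848 and 0.920 CPM in IR glands (1.20 ± 0.28, adjusted p = 0.366, edgeR), while the Wnt target list had a median of 0.05.

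The remaining lists had 0 members past the test, except the clock list with Nfil3. Among 19 clock genes Per1, Hlf and Nfil3 stood above all control samples and Bhlhe40 below them, and the median was 0.03. Of 7 dendritic cell genes 0 stood above and 1 below, with a median of -0.12 that kept its sign in 12 of 23 alternatives and was 0.03 by total counts. Of 5 B and plasma cell genes 1 stood above and 0 below, with a median of -0.59 that kept its sign in 20 of 23 alternatives. Of 10 acute phase and antimicrobial genes 3 stood above and 2 below, with a median of 0.08. Of 19 chemokines and their receptors 5 stood above and 1 below, with a median of 0.50. Of 13 genes induced by interferon gamma 7 stood above, with a median of 0.69, though Irf8, the most abundant, differed by -0.11. Of 18 genes of the NF-kB pathway, cytokines and adhesion 7 stood above, with a median of 0.27. Of 25 chaperones and stress genes of the endoplasmic reticulum 6 stood below, and their median of -0.06 turned to 0.08 by total counts. Of 31 genes of oxidative phosphorylation 9 stood above with a median of 0.03, and mt-Co1, a subunit of cytochrome oxidase, differed by -0.02. Endothelial genes had a median of 0.09, senescence genes 0.11, antioxidant genes 0.03 and duct genes -0.07, which turned to 0.08 by total counts. Genes of neurons and Schwann cells had a median of -0.18.

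Some genes that missed the threshold of the fit of all groups passed under other tests. The compared groups fitted alone gave 52 genes higher and 15 lower (0.388% and 0.112% of 13415 genes). Of these, 29 higher and 7 lower genes were also called by DESeq2, and the following were chosen from them after their values were seen. Apod, a lipid-binding apolipoprotein, had 78.3 and 91.1 CPM in IR+Shh, against 30.4 and 40.5 CPM in IR+GFP glands and 26.6 and 25.2 CPM in IR glands. Per1, a clock gene, had 38.3 and 47.1 CPM in IR+Shh, against 23.6 and 20.1 CPM in IR+GFP glands and 22.2 and 26.5 CPM in IR glands. Sik1, a kinase of the cyclic AMP response, had 30.0 and 24.2 CPM in IR+Shh, against 15.9 and 14.7 CPM in IR+GFP glands and 16.6 and 12.9 CPM in IR glands. The groups did not overlap in any of the 3, whose log2 differences were 1.47, 0.89 and 0.85 with adjusted p of 0.264, 0.266 and 0.182 in the fit of all groups (edgeR).

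Adcy7, an adenylyl cyclase, had 6.80 and 8.49 CPM in IR+Shh, against 3.02 and 4.06 CPM in IR+GFP glands and 3.94 and 3.84 CPM in IR glands (1.04 ± 0.17, adjusted p = 0.101, edgeR). Sp100, a nuclear body protein induced by interferon, had 58.3 and 62.1 CPM in IR+Shh, against 35.4 and 36.9 CPM in IR+GFP glands and 40.8 and 39.9 CPM in IR glands (0.65 ± 0.09, adjusted p = 0.0761, edgeR). Gpx3, an extracellular glutathione peroxidase, and Thy1, a surface protein of fibroblasts and T cells, were among the higher with log2 differences of 1.27 and 1.74. Among the lower was Gal3st3, a galactose sulfotransferase, with 2.81 and 2.66 CPM in IR+Shh, against 5.41 and 5.91 CPM in IR+GFP glands and 5.26 and 5.74 CPM in IR glands (-1.03 ± 0.16, adjusted p = 0.101, edgeR). Slc16a6, a transporter, Gadd45a, a stress-response gene, and E2f5, a cell cycle factor, differed by -0.75, -0.80 and -0.43.

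**Figure D5:**
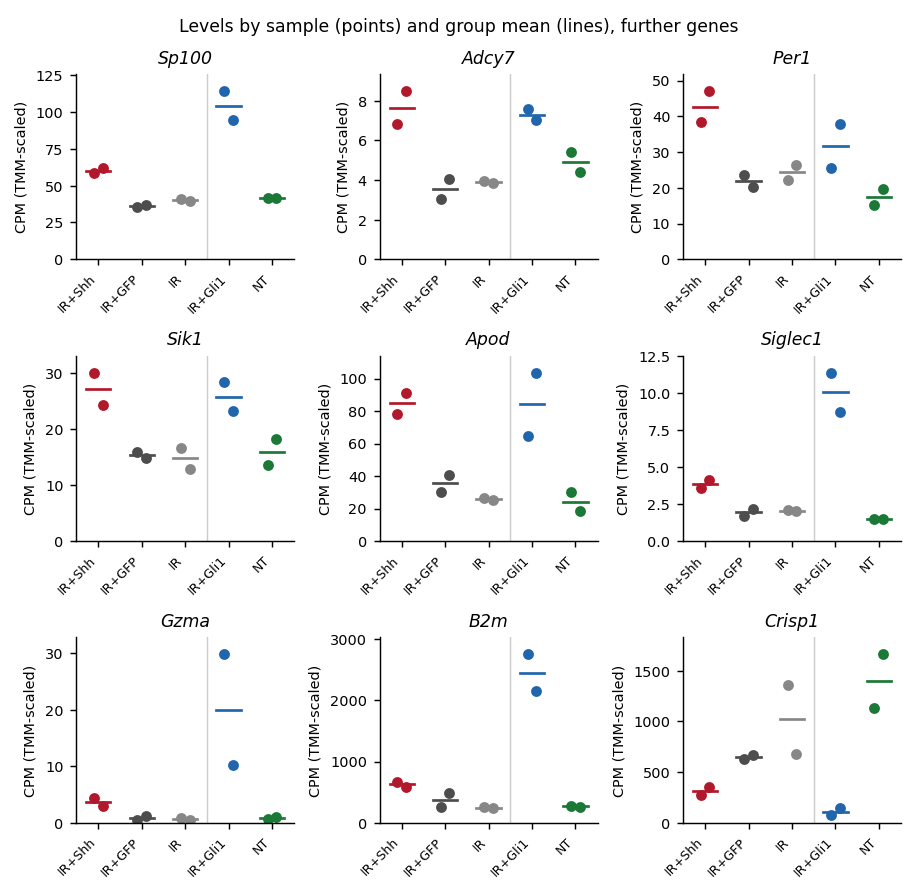
Levels of 9 further genes by sample, with points, lines and groups as in the plot of Gli1 and C1qc. Both IR+Shh points lie above all IR+GFP and IR points for every gene but Crisp1, where they lie below them, and IR+Gli1 is highest for Sp100, Siglec1, Gzma and B2m.

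The members of the irradiated control were compared with each other. IR+GFP against IR gave 0 of 14304 genes (0%) by edgeR's quasi-likelihood test, with 298 at an unadjusted p under 0.05 (2.08%), and DESeq2 gave 7. Markers of tissue beside the gland differed between single samples. In IR+Shh Dcpp3, which marks the sublingual gland, had 0.520 and 0.258 CPM and Dcpp2 had 0.433 and 0.221 CPM, while IR+GFP 1+2 had 80.2 and 63.9 CPM and NT 2+3, which entered the fit, had 16013 and 13031 CPM. The 6 sublingual genes summed to 4.33 and 3.76 CPM in IR+Shh, against 190 and 6.77 CPM in IR+GFP glands and 6.85 and 6.50 CPM in IR glands. Gal3st3, 1 of the 6, had 2.81 and 2.66 CPM in IR+Shh, 5.41 and 5.91 CPM in IR+GFP glands and 5.26 and 5.74 CPM in IR glands. Gal3st3 made up most of the sum in every compared sample but IR+GFP 1+2. In NT 1 and NT 2+3 it had 2.46 and 2.53 CPM. The 5 haemoglobin genes summed to 30.8 and 3.17 CPM in IR+Shh, against 40.5 and 25.2 CPM in IR+GFP glands and 52.1 and 36.1 CPM in IR glands. Adipocyte genes summed to 7.23 and 53.8 CPM in IR+Shh, against 5.58 and 21.7 CPM in IR+GFP glands and 54.7 and 5.41 CPM in IR glands. The part of these tissues in the results was not tested.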

How the data were processed

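RNA-seq of submandibular glands comprised 15 libraries, 3 for each of 5 groups, per the labels. The deposited values are raw read counts per gene. Per the submitters' processing notes the authors aligned and counted reads with tools that include TopHat2 2.0.13, Bowtie 0.12.2 and HTSeq 0.10.0, and the notes name DESeq2, mm10 and GRCm38; strand mode and annotation release are not given in the sources used here. Summary lines that name no gene were left out: reads on no annotated gene were 1.31% to 3.81% of all reads listed. Symbols came from GENCODE vM21 (GRCm38) for 96.2% of 39179 genes. Near-identical libraries (mean chi-square per gene under 1, genes with at least 20 reads) were averaged, which left 10 samples.

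Counts were fitted in edgeR 4.0.16 (R 4.3.3) with filterByExpr, TMM, a prior count of 0.125 and robust quasi-likelihood tests, with IR and IR+GFP as 1 group, 6 residual degrees of freedom and a common biological coefficient of variation of 0.19. The test was also run on counts simulated with the spread estimated in the same fit, which does not show how it performs on these data. Alternatives used DESeq2 1.42.0 and limma 3.58.1, other scalings and filters, subsets of samples and separate libraries. Named genes were Gli1, Heyl, C1qc, genes that passed (at least 2 CPM, no overlap; up to 10 each way, and up to 4 a list), and up to 2 members by mean CPM of lists with none. The 47 lists held 827 unique symbols, of which 711 were tested. All other genes named were picked with their values in view. The comparison, its members and all lists were chosen with earlier results of these data known. Promoters were RefSeq's (7 of 11 genes found). Some genes of the lists entered the counts and medians but are not reported by name here.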

Additional observations from a re-analysis of the deposited data

Results flagged for a closer look

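Among 140 values checked over the 4 control samples, 11 had 1 sample far from the other 3; chance flags about 1 in 20 such groups. IR+GFP 3 was high in H2-D1 at 631 CPM, B2m at 485 CPM, Cdkn1a at 37.3 CPM and Prol1, a proline-rich salivary protein, at 44842 CPM, where the other control samples of Prol1 had 16495 to 19897 CPM. IR 1+2 was high in Egf at 79034 CPM, Klk1b26 at 73534 CPM, Crisp1 at 1364 CPM and Lcn2, a secreted iron-siderophore binder, at 113 CPM, where the other control samples of Lcn2 had 50.6 to 56.0 CPM. IR+GFP 1+2 was high in Dcpp3 at 80.2 CPM, Dcpp2 at 63.9 CPM and Hspa5, a chaperone of the endoplasmic reticulum, at 904 CPM, where the other control samples of Hspa5 had 729 to 754 CPM.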

How the results depend on the processing

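The number of genes past the threshold changed with the processing. In place of 4 genes (4 higher, 0 lower) it was 15 (15, 0) with total-count scaling, 16 (16, 0) with no low-count filter, 51 (40, 11) with DESeq2, 67 (52, 15) with the compared groups alone and 79 (71, 8) without IR+GFP 3 and IR+Gli1 3. It was 0 with limma-voom, with the deeper library of each pair, with IR and IR+GFP given their own means, and with IR or IR+GFP alone as control. Leaving out single samples gave 0 to 4 genes, with 0 to 4 higher and 0 lower. Taking near-identical libraries as 15 separate ones gave 812 genes (428, 384), and 648 (347, 301) with the replicate number as a block; the numbers did not pair the libraries, since 0 of 9 same-numbered pairs deviated together with r over 0.1, and 7 of the 15 resembled their own number most, a hint from the data only. For IR+GFP against IR the count was 214 with no filter, 7 with DESeq2, 5 with separate libraries, and 0 to 1 on leaving out single samples. The cause was not tested. Without NT samples 5 genes passed and with protein-coding genes alone 4, and both settings were chosen after seeing the data.

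Gli1, Heyl and C1qc kept their direction in all 23 alternatives. Gli1 no longer passed with limma-voom (log2 2.33), the deeper library (2.31), separate control means (2.37), IR alone (2.41) and IR+GFP alone (2.33). Nor did Gli1 pass without IR 1+2 (2.32), IR 3 (2.39) or IR+GFP 1+2 (2.48), and it still passed without IR+GFP 3 (2.30). Its log2 difference was 2.01 without IR+Shh 2 and 2.65 without IR+Shh 1+3. Heyl passed with total counts (2.40), no filter (2.25), DESeq2 (2.25), the compared groups alone (2.23), separate libraries (2.09, or 2.06 with the block) and without IR+GFP 3 and IR+Gli1 3 (2.15). C1qc passed with total counts (0.85), no filter (0.71), DESeq2 (0.71), the compared groups alone (0.70), separate libraries (0.75, and 0.75 with the block), without IR+GFP 3 and IR+Gli1 3 (0.75) and without NT (0.71). In the control samples Gli1 rests on 9 to 19 reads and Heyl on 8 to 21, so their levels there carry a wide counting error.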
